A study of Arabidopsis thaliana with 2 samples.

Results

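The genes described here are 52 Arabidopsis thaliana genes of the heat shock response, listed by gene identifier: 15 heat shock factors (HSFs), 12 small heat shock proteins, 9 HSP70 proteins, 7 HSP90 proteins, 3 HSP101/ClpB proteins, 4 co-chaperones and 2 further regulators. The list was drawn up by gene family, with no threshold on the measured values, and does not hold every gene of these families. Members were chosen with earlier results of these data known. Of the 52, 29 were among the 6791 genes of the deposited table. The study compared wild-type plants with the mutant ago1-27, in tissue labelled as flower buds. It carries a weak, partly functional allele of ARGONAUTE1 (AGO1), into which most plant microRNAs are loaded. All plants grew in soil at 20 °C in long days (16 h light, 8 h dark), so no heat treatment enters the comparison. Each sample was described as 3 biological replicates, sequenced as 50-nt single-end reads without strand. The table gives 1 RPKM value (reads normalised to transcript length and library size) per genotype, so differences below carry no p-value. In wild type the flower genes AP1 and LFY measured 0.0779 and 0.151 RPKM, about 2 reads each in an average library, and LFY was read from 1 library per genotype. The leaf photosynthesis genes RCA and LHCB2.2 measured 5341 and 21.3 RPKM. The AP1, LFY and RCA values go against the flower bud label but do not settle the tissue, since the other markers searched were not in the table.

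Heat shock proteins are molecular chaperones: they bind unfolded proteins, keep them from aggregating, and refold them or pass them on. In plants, class A HSFs bind repeats of the unit GAA, in alternating orientation, in the promoters of these genes and activate them in heat, while class B factors mostly repress. HSP70 and HSP90 also hold HSFs inactive when no stress is present, and constitutive copies of both serve protein folding in unstressed cells.

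Most of the listed heat shock genes in the table were lower in ago1-27 than in wild type. Of the 29 listed members, 26 had the lower value in ago1-27 and 3 the higher, where 30.6% of all genes in the table were lower. A gene was called when log2(RPKM + 1) differed by at least 1, which is 2-fold, and 1 genotype or both reached an RPKM of 1. By that rule 19 members were called lower, beside 10.5% of all 6606 genes compared, and 0 were called higher, beside 11.3%. The median difference in log2(RPKM + 1) was -1.22 over the 29 members and 0.62 over all genes compared. Median-of-ratios scaling moved the median of all genes to -0.01, and 25 members were called lower and 0 higher, where 1970 and 219 of all 6558 genes compared were (30% and 3.34%). Quantile normalization moved the median of all genes to 0.33 and gave 20 and 0, where 1212 and 395 of 6584 genes were called (18.4% and 6%). The RPKM of all 29 members summed to 920 in wild type against 269 in ago1-27. In bulk tissue, fewer cells of a type and less RNA per cell cannot be told apart.

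**Figure D1:**
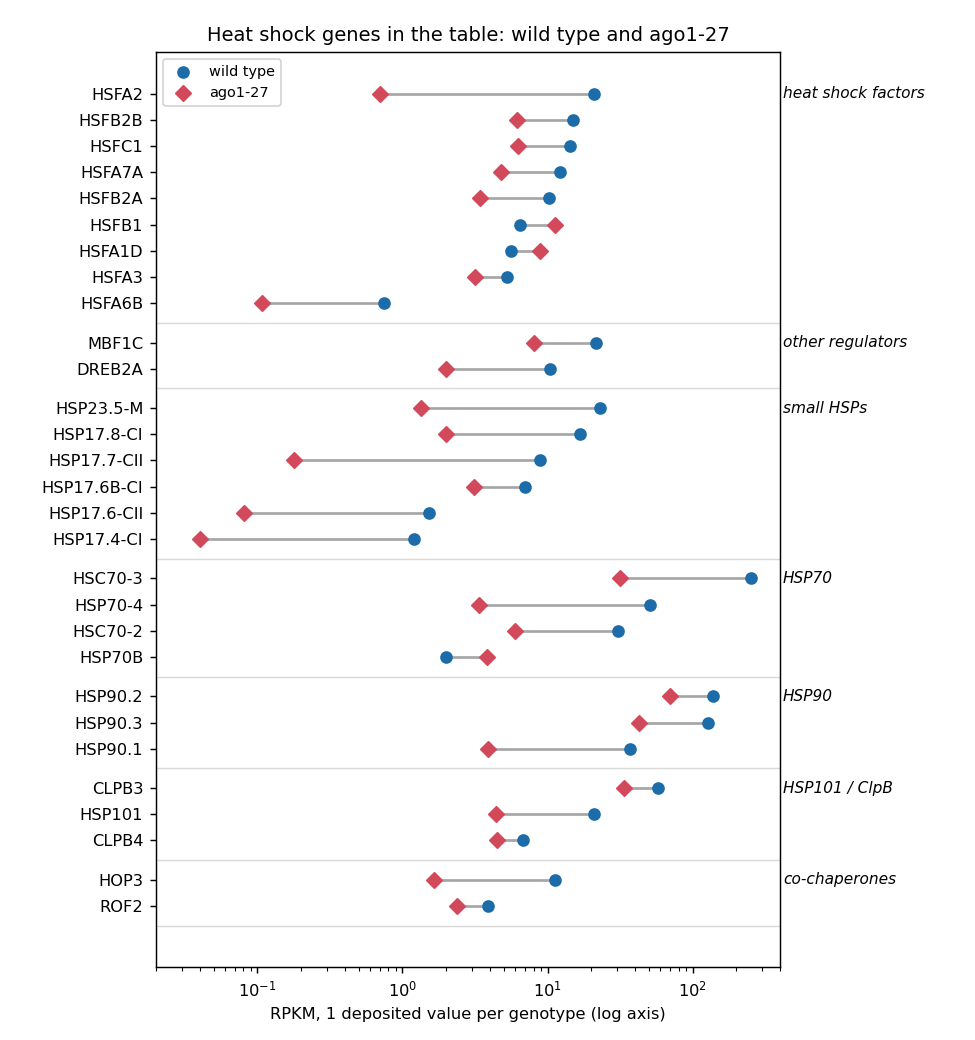
RPKM of the 29 members in the table, on a log axis, grouped by protein family and ordered by wild-type level. Circles are wild type and diamonds ago1-27, 1 deposited value each, joined by a line. The diamond lies left of the circle in 26 genes and right of it in HSFB1, HSFA1D and HSP70B. HSFA1D changed sign under median-of-ratios scaling.

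The promoters below show what the heat shock element looks like in front of these genes, and where it was not found. They are the 250 bases before the outermost annotated transcript start, read from the RefSeq TAIR10.1 genome on the gene's strand. Capitals mark every match to a 3-unit element, in which GAA, TTC and GAA are separated by NN (any 2 bases), or to a 2-unit element, GAANNTTC or TTCNNGAA. Each was searched on both strands, and every 3-unit element contains both kinds of 2-unit element. The first 4 genes had the largest differences in log2(RPKM + 1) among the called members. HSP22.0-ER, a small heat shock protein of the endoplasmic reticulum (ER) that was not in the table, is shown as 1 member of the ER class.
HSFA2 (chr2:11135374-11135623, plus strand): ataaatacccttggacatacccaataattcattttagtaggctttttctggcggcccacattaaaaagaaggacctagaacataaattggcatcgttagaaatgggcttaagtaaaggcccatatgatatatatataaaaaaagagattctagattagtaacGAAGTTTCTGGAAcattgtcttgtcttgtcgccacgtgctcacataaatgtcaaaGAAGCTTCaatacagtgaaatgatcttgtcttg
HSP70-4 (chr3:3993887-3994136, minus strand): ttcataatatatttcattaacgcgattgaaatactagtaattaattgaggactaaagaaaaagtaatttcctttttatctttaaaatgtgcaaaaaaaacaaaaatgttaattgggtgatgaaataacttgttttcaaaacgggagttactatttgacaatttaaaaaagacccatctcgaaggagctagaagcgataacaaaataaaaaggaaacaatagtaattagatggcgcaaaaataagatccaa
HSP23.5-M (chr5:20890913-20891162, plus strand): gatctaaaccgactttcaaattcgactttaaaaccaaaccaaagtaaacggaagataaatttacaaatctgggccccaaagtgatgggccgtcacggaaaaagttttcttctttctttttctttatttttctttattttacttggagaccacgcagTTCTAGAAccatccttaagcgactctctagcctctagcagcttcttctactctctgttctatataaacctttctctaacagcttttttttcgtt
HSP17.7-CII (chr5:3884839-3885088, minus strand): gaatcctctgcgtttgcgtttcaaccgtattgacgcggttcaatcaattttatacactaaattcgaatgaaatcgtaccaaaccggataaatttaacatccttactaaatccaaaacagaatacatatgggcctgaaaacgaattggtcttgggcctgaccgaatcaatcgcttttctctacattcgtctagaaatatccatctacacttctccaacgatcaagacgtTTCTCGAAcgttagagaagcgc
HSP22.0-ER (chr4:6370088-6370337, plus strand): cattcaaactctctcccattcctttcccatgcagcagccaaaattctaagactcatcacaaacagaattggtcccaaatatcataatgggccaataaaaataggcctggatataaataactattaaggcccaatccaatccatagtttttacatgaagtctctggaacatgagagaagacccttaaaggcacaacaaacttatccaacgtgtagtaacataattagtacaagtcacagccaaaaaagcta

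HSFA2 held a 3-unit and a 2-unit element, HSP23.5-M and HSP17.7-CII each held 1 of 2 units, and no match lay in these windows of HSP70-4 and HSP22.0-ER. The 3-unit element was found before 6 of the 52 members, and before 106 of all 27432 protein-coding genes (0.386%). All 6 belong to the 26 members listed as heat-inducible and cytosolic or nuclear. For HSP17.4-CI alone of the 52 the gene record begins upstream of the transcript, by 26 bases, so its sites lie nearer to that start. The sites are given here, with distances to the transcript start, for the 4 of these genes that were in the table, with capitals for the GAA units, read as TTC on the other strand.
HSFA2, ending 76 bases before the start: GAAgtTTCtgGAA
HSFA7A, ending 180 bases before the start: TTCcaGAAgtTTC
HSFA7A, ending 130 bases before the start: TTCcaGAAgtTTC
HSP17.4-CI, ending 113 bases before the start: GAAgcTTCttGAA
HSP17.4-CI, ending 32 bases before the start: GAAatTTCaaGAA
DREB2A, ending 152 bases before the start: TTCgaGAAgaTTC

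HSFA2, HSFA7A, HSP17.4-CI and DREB2A were all called lower in ago1-27. HSFA7B and HSP17.6C-CI, which also held a 3-unit element, were not in the table. HSFA7A carried the same 13 bases at both of its sites. The 2-unit element was common: it stood before 16.2% of all protein-coding genes, 14 of the 52 members (26.9%), 6 of the 19 members called lower (31.6%) and 7 of the 23 members not in the table (30.4%). It was found before none of the 3 members that were higher. The ER stress element, CCAAT and CCACG separated by any 9 bases and searched on both strands, stood before 0.306% of all genes and among the members before HSP90.7 alone, the ER form of HSP90. A match is a description of these letters, and binding was not measured.

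**Figure D2:**
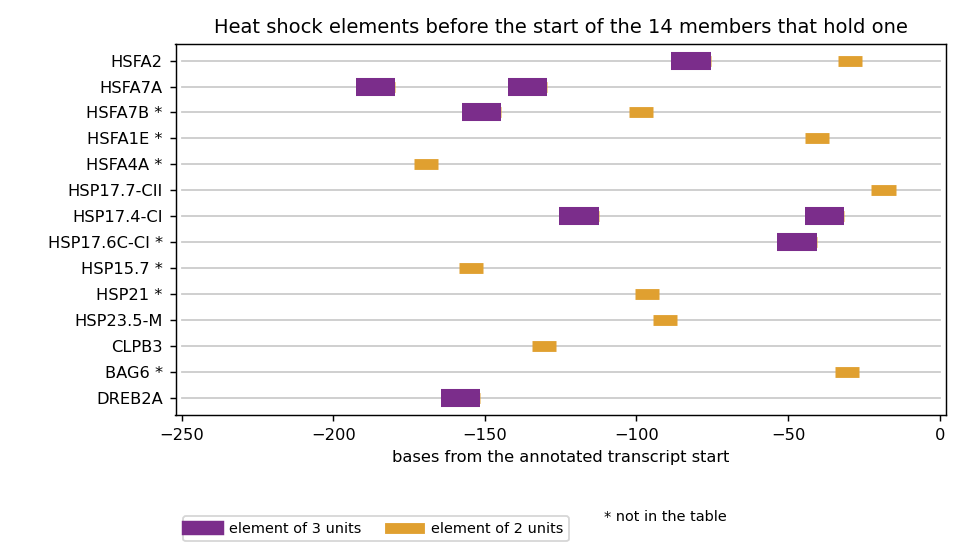
Positions of heat shock elements in the 250 bases before the annotated transcript start of the 14 members that hold one. Purple boxes are elements of 3 units and orange boxes elements of 2 units that lie outside them, and an asterisk marks genes not in the table. HSFA7A and HSP17.4-CI each hold 2 elements of 3 units.

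Among the transcription factors, HSFA2, a heat-induced activator that prolongs the response, stood furthest apart. HSFA2 (AT2G26150, chromosome 2, 11135624 to 11137792 in TAIR10.1) measured 20.9 RPKM in wild type against 0.704 in ago1-27. That is 29.7-fold lower, with a 95% interval of 17.9 to 51.7. Intervals are exact binomial (Clopper-Pearson) for the ratio of reads, reckoned as if 1 average library had been sequenced, so they hold counting error alone. By the ratio of RPKM, HSFA2 ranked 15 from the lowest of the 6606 genes compared. Among the 9 listed HSFs in the table, its wild-type level was the highest and its ago1-27 level was above that of HSFA6B only.

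The other heat-induced factors differed less. HSFA7A (AT3G51910), a class A factor, measured 12.3 RPKM in wild type against 4.81 in ago1-27, 2.55-fold lower. HSFA3 (AT5G03720), a class A factor that is a target of DREB2A, measured 5.23 and 3.16 and was not called. The class B factors split: HSFB2A (AT5G62020) measured 10.2 and 3.42 RPKM and HSFB2B (AT4G11660) 15.0 and 6.19, both called lower, while HSFB1 (AT4G36990) measured 6.44 and 11.3, 1.76-fold higher and not called. On the log2(RPKM + 1) scale HSFB1 stood at 0.73, and at 0.10 under median-of-ratios scaling.

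Of the 8 HSFs not listed as heat-inducible, 3 were in the table. HSFA1D (AT1G32330) belongs to the HSFA1 factors that start the heat response. It measured 5.62 RPKM in wild type against 8.87 in ago1-27, 1.58-fold higher and not called, and its log2 difference became -0.03 under median-of-ratios scaling. HSFC1 (AT3G24520), the single class C factor of Arabidopsis, measured 14.4 and 6.28 RPKM, 2.29-fold lower. Nearly all of its exon bases (96.7%) overlap the antisense RNA gene AT3G24518, which was in the table at 11.001 and 4.74 RPKM. Without strand the reads of these overlapping genes cannot be told apart. HSFA6B (AT3G22830), a class A factor, had 0.746 RPKM against 0.107, below the minimum for a call, and both values are whole reads of 1 library per genotype. HSFA1A, HSFA1E, HSFA4A, HSFA6A, HSFA8 and the heat-inducible HSFA7B were not in the table.

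Both further regulators were called lower. DREB2A (AT5G05410), a factor of the drought and heat responses, measured 10.4 RPKM in wild type against 1.98 in ago1-27, 5.27-fold lower with a 95% interval of 3.73 to 7.64. MBF1C (AT3G24500), a coactivator needed for thermotolerance, measured 21.7 and 8.12 RPKM, 2.67-fold lower.

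Small heat shock proteins hold unfolded proteins without using ATP, and among the listed members they had the lowest summed ratio of the families. The 6 listed ones in the table summed to 58.1 RPKM in wild type against 6.74 in ago1-27, a ratio of 0.116, and 5 of the 6 were called lower. This sum leaves out 2 small heat shock proteins outside the list. Of these, HSP15.4 was higher in ago1-27 (21.98 and 65.7 RPKM) and HSP17.6A-CI lower (6.52 and 0.885). HSP17.7-CII (AT5G12030), a cytosolic class II protein, measured 8.93 and 0.179 RPKM, 49.9-fold lower with a 95% interval of 12.6 to 393. By ratio it ranked 8 from the lowest of the genes compared. Its neighbour HSP17.6-CII (AT5G12020), 845 bases away on chromosome 5, measured 1.52 and 0.0807 RPKM.

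The class I proteins covered a wide range of ratios. HSP17.8-CI (AT1G07400) measured 16.6 RPKM in wild type against 1.99 in ago1-27, 8.34-fold lower with a 95% interval of 5.35 to 14.3. HSP17.4-CI (AT3G46230) measured 1.1996 and 0.0404 RPKM. HSP17.6B-CI (AT2G29500) measured 6.96 and 3.10 RPKM, 2.24-fold lower by RPKM but at -0.96 on the log2(RPKM + 1) scale, just short of a call. The mitochondrial HSP23.5-M (AT5G51440) had the highest wild-type level of the 6, at 22.9 RPKM, and 1.35 in ago1-27, 17.0-fold lower with a 95% interval of 10.5 to 29.0. HSP18.2-CI, HSP17.6C-CI, HSP15.7, the plastid HSP21, HSP23.6-M and HSP22.0-ER were not in the table.

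HSP70 proteins, the ATP-driven chaperones that bind short hydrophobic stretches, held the largest share of the summed level of the members in wild type. The 4 listed ones in the table summed to 336 RPKM in wild type against 44.9 in ago1-27. HSC70-3 (AT3G09440), a constitutive cytosolic form, was the most abundant member in wild type at 252 RPKM, and measured 31.7 in ago1-27, 7.97-fold lower with a 95% interval of 7.51 to 8.46. HSC70-2 (AT5G02490), also constitutive, measured 30.7 and 6.002 RPKM, 5.12-fold lower. Its neighbour HSC70-1, 917 bases away on chromosome 5, was not in the table.

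The heat-inducible cytosolic HSP70 genes went in opposite directions. HSP70-4 (AT3G12580) measured 51.0 RPKM in wild type against 3.39 in ago1-27, 15.1-fold lower with a 95% interval of 12.3 to 18.6. Among the members it was number 5 by level in wild type and number 17 in ago1-27. HSP70B (AT1G16030) measured 1.996 and 3.84 RPKM, 1.93-fold higher and not called, at 0.69 on the log2(RPKM + 1) scale and 0.18 under median-of-ratios scaling. HSP70T-2 and the ER forms BIP1, BIP2 and BIP3 were not in the table.

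Among the HSP90 proteins, which complete the folding of kinases, receptors and other clients, all 3 in the table were lower. HSP90.1 (AT5G52640), the heat-inducible cytosolic form, measured 36.8 RPKM in wild type against 3.89 in ago1-27, 9.48-fold lower with a 95% interval of 7.67 to 11.8. The constitutive HSP90.3 (AT5G56010) measured 127 and 42.6 RPKM, 2.98-fold lower, and HSP90.2 (AT5G56030) measured 139 and 69.4, 2.005-fold lower. HSP90.2 stood at -0.99 on the log2(RPKM + 1) scale, just short of a call. HSP90.2 and HSP90.3 were the most abundant members in ago1-27. HSP90.4 and the plastid, mitochondrial and ER forms HSP90.5, HSP90.6 and HSP90.7 were not in the table.

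The HSP101/ClpB disaggregases pull proteins out of aggregates, and all 3 were in the table. The heat-inducible cytosolic HSP101 (AT1G74310) measured 20.8 RPKM in wild type against 4.44 in ago1-27, 4.67-fold lower with a 95% interval of 3.96 to 5.51. The plastid CLPB3 (AT5G15450) measured 58.0 and 33.6 RPKM and the mitochondrial CLPB4 (AT2G25140) 6.76 and 4.47, and neither was called. Of the co-chaperones, HOP3 (AT4G12400), which links HSP70 to HSP90, measured 11.2 and 1.65 RPKM, 6.76-fold lower. ROF2 (AT5G48570), a peptidyl-prolyl isomerase of the FKBP type, measured 3.86 and 2.37 RPKM and was not called. ROF1 and BAG6 were not in the table.

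Grouped by induction and compartment, lower values were found in every class with members in the table. Of the 26 heat-inducible cytosolic or nuclear members, 19 were in the table, 17 lower and 14 called lower, with a median of -1.31 in log2(RPKM + 1). Of the 6 constitutive cytosolic HSP70 and HSP90 genes, 4 were in the table, all lower and 3 called, with a median of -1.87. The 3 of 8 HSFs not listed as heat-inducible had a median of -0.66, and -0.25 without HSFA6B, read from 1 library per genotype. The 3 of 7 plastid or mitochondrial members had a median of -0.77, with HSP23.5-M at -3.35, CLPB3 at -0.77 and CLPB4 at -0.51. In each of these classes 1 member was called lower. The order of the heat-inducible and the constitutive cytosolic medians turned with the setting: they were -2.20 and -1.95 with a pseudocount of 0.1, -2.22 and -1.97 with none, and -1.94 and -1.87 with RPKM of 5 or more. None of the 5 ER members was in the table. The table held 1 gene alone with a ratio nearer to 1 than 1.5-fold, so absence can mean a smaller difference or a failed selection step, and the step is not described. Differences between the classes were not tested, since there is 1 value per genotype.

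**Figure D3:**
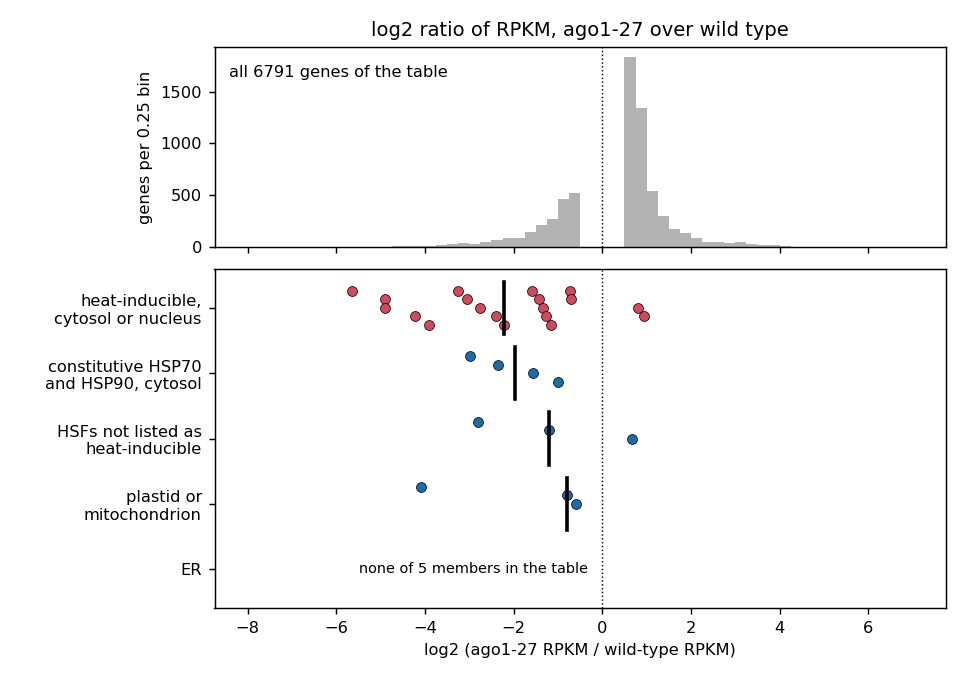
Upper panel, log2 ratio of RPKM (ago1-27 over wild type, no pseudocount) of all 6791 genes in bins of 0.25. Lower panel, the same ratio for the members in the table by class, 1 point a gene, with a bar at the class median. The points of the heat-inducible class reach furthest to the left, the constitutive cytosolic points all lie left of 0, and the ER class has no point.

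For 4 members the deposited value could be split into whole reads of single libraries, and for 25 it could not. HSP17.4-CI and HSFB1 were split at an annotated transcript length, and HSP17.6-CII and HSP70B at lengths of 702 and 2330 nt found by search, where TAIR10.1 gives 881 and 2570 nt. HSP17.4-CI had 7, 12 and 12 reads in the 3 wild-type libraries and 0, 0 and 1 in the 3 of ago1-27. HSP17.6-CII had 15, 10 and 12 reads in wild type and 1, 0 and 1 in ago1-27. In both genes every wild-type library lay above every ago1-27 library. The share of all genes with such separation was not counted, and all but 1 gene of the table differed by at least 1.5-fold. Without the wild-type library of 12 reads and 1.48 RPKM, HSP17.4-CI stood at -0.98 in log2(RPKM + 1) and was no longer called. Summed over libraries, the ratio of read rates was 0.0320 for HSP17.4-CI (95% exact interval 0.000784 to 0.192) and 0.0536 for HSP17.6-CII (0.00625 to 0.208).

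HSP70B had 57, 50 and 56 reads in wild type and 117, 113 and 92 in ago1-27, which is 1.996 ± 0.312 RPKM against 3.84 ± 0.344 (SD, n = 3). All 3 ago1-27 libraries lay above all 3 of wild type. HSFB1 was read from 2 libraries per genotype, with 129 and 159 reads in wild type and 250 and 229 in ago1-27, again without overlap. How many other genes of the table show no overlap was not counted. With 3 libraries against 3, the smallest two-sided exact permutation p is 0.1, so no test was made.

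**Figure D4:**
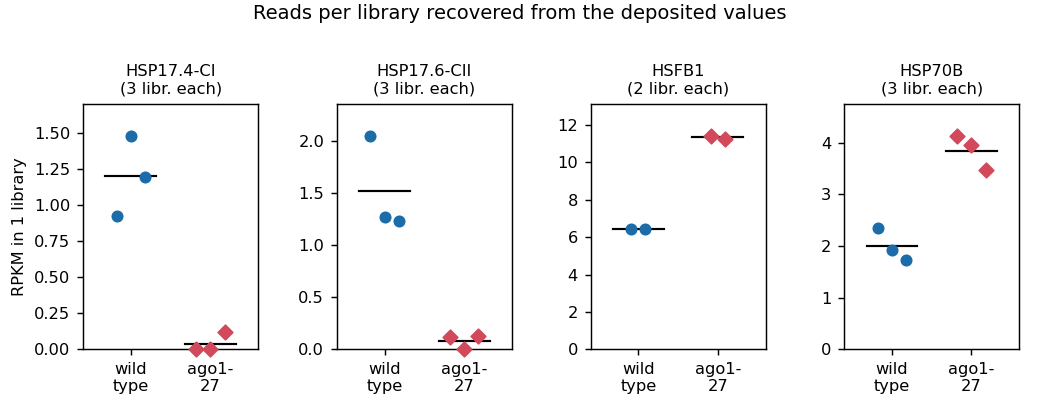
RPKM in single libraries for the 4 members whose values could be split into whole reads. Circles are wild-type libraries, diamonds ago1-27 libraries and bars the mean, which equals the deposited value. The genotypes do not overlap in any of HSP17.4-CI, HSP17.6-CII, HSFB1 (2 libraries per genotype) and HSP70B. All but 1 gene of the table differed by at least 1.5-fold, and how many separate in this way was not counted.

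Some members share read-length sequence with other genes, so their values depend on how the authors assigned reads. Of the 29, 18 shared no stretch of 50 nt with a transcript of another gene on either strand, 4 shared under 5% and 7 shared 5% or more. HSP90.3 shared 23.9% and HSP90.2 18.8% of their stretches, mostly with each other and with HSP90.4. HSP17.4-CI overlaps the antisense RNA gene AT3G07365 over 62.6% of its exon bases, and HSC70-3 overlaps AT3G09430 over 18.9%. Of the genes overlapping members, AT3G24518 and AT1G74300 were in the table, the latter over 3.00% of HSP101 and with a higher value in ago1-27 (4.83 and 7.72 RPKM). HSFA2, HSP70-4, HSP90.1, HSP17.8-CI and HSP23.5-M shared no stretch.

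**Figure D5:**
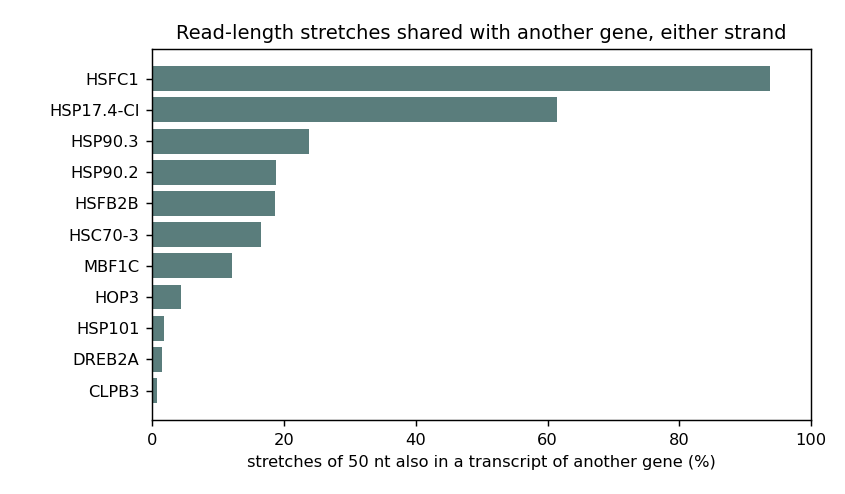
Percent of each member's 50-nt stretches that also occur in a transcript of another gene, on either strand, for the 11 members in the table that share any. HSFC1 and HSP17.4-CI lead through antisense RNA genes, followed by HSP90.3 and HSP90.2.

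Genes of the same pathway outside the 52 lay near the background of the table. Of 56 such genes in 7 lists, 14 were in the table, 4 lower and 10 higher, with 2 called in each direction. Over all genes, 69.4% were higher, and 10.5% and 11.3% were called lower and higher. HSP17.6A-CI, a class I small heat shock protein, measured 6.52 RPKM in wild type against 0.885 in ago1-27, and the J protein AT2G20560, a partner of HSP70, measured 10.03 and 1.09. The calls in the other direction were HSFB4, a class B factor known from root development, at 5.82 and 15.0 RPKM, and the small heat shock protein HSP15.4 (AT4G21870) at 21.98 and 65.7. Neither of these higher calls was made under median-of-ratios scaling.

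The lists without a call add detail. Of 8 other HSP70 genes, 2 were in the table, in opposite directions. HSP70-17, an ER-type protein, measured 32.3 and 55.5 RPKM, and the plastid cpHSC70-2 measured 273 and 176. In log2(RPKM + 1) HSP70-17 stood at 0.77 and cpHSC70-2 at -0.63, where the median of all genes compared was 0.62. Of 10 genes of the unfolded protein response of the ER, 3 were in the table and higher by RPKM, led by PDIL1-1, a protein disulfide isomerase, at 53.1 and 85.9 RPKM. Their median in log2(RPKM + 1) was 0.61, near that of all genes compared. None of 6 chaperonin genes and none of 6 heat stress genes that are not chaperones was in the table.

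Library sizes read from the steps of low values were 10453032 to 13887069 reads in wild type and 11407616 to 12294210 in ago1-27. AGO1 measured 53.1 RPKM in wild type against 175 in ago1-27. This allele leaves the transcript in place, so absence of the transcript could not be used to check the labels. Of 8 flower organ identity markers 2 were in the table, AP1 and LFY, summing to 0.229 RPKM in wild type and 1.90 in ago1-27, while AP3, PI, AG and SEP1 to SEP3 were not. Of 5 leaf photosynthesis markers 2 were in the table, and both were lower in ago1-27, as most of the listed heat shock genes were. RCA measured 5341 and 3390 RPKM, and LHCB2.2, a light-harvesting protein, 21.3 and 6.90, 3.09-fold lower and called. The part of tissue makeup in the values of the heat shock genes was not tested.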

How the data were processed

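Per the labels' protocols, total RNA was made into TruSeq libraries and sequenced without strand. The submitters' processing notes name TopHat2 2.0.11 and build TAIR10, and for the counting step and the selection of genes no tool or rule is given in the sources used here. Per the file headers, the deposited columns are 1 RPKM value for each genotype and a ratio (fold change, ago1-27 divided by wild type). RPKM columns hold no replicates, so no test was run and members are described by ratios, calls and medians. Members and lists were chosen with earlier results of these data known.

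Calls used a pseudocount of 1 and a minimum of RPKM 1 in 1 genotype, and the pseudocount makes low genes look less changed. Library sizes were read from whole-read steps of low values, and values were split into reads of single libraries where 1 solution alone existed. Lengths were the annotated ones or, for low members, a search from 400 nt below to 100 nt above them, and solutions whose reads share a common factor were dropped. On simulated data, the search returned the true reads for 40 of 40 rows of 3 libraries per genotype. Those rows did not include values from 2 libraries, as for HSFB1. For 60 of 60 further rows of 1 to 3 libraries, with the length among 3 known, the true reads were among the solutions. These had fewer reads than HSFB1, and other solutions were not excluded. Both simulations took the library sizes as given, so they cannot check them. Of the table's identifiers, 6772 were found in RefSeq TAIR10.1 and 19 were not. Coordinates, lengths and sequences are those of TAIR10.1 and may differ from the annotation the authors used.

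All members in the table are named. Of other pathway genes, those called are named, or the one with the largest log2 ratio in a list without a call. HSFA1B, cpHSC70-2 and the markers were added after their values were seen. Promoters were printed for the 4 called members with the largest log2 ratio and 1 ER member. AT3G24518 and the other overlapping genes were named after their values were seen. Alternatives were other pseudocounts, filters, scalings and a 1.5-fold call. Scripts ran in Python 3.11.15 with scipy 1.17.1, numpy 2.4.6, matplotlib 3.10.9 and pandas 2.3.3.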

Additional observations from a re-analysis of the deposited data

How the results depend on the processing

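The count of members called lower (19) ran from 17 with RPKM of at least 5 to 25 under median-of-ratios scaling. No member was called higher, except 2 at a 1.5-fold call. HSFA1D alone changed sign, under the median of ratios. Over all genes, calls were 694 lower and 748 higher, against 1970 and 219 under the median of ratios and 1212 and 395 under quantile normalization. With RPKM of at least 5 they were 536 and 545 of 5099 genes compared, and at a 1.5-fold call 1810 and 3818 of 6606. The heat-inducible median (-1.31) was -2.20 with a pseudocount of 0.1, -2.22 with none, -1.94 with RPKM of at least 5 and -1.92 under the median of ratios. The median of HSFs not listed as heat-inducible (-0.66) was -1.18 with a pseudocount of 0.1 and -1.19 with none. Without HSFA6B, which is lost with RPKM of at least 5 or without rows of 1 library per genotype, it was -0.25. The constitutive cytosolic median (-1.87) was -1.95 with a pseudocount of 0.1 and -1.97 with none. Under the median of ratios it was -2.53 and the plastid and mitochondrial median -1.45. Pathway genes outside the members called lower (2) numbered 4 under the median of ratios and 4 at a 1.5-fold call. Those called higher (2) numbered 0 under the median of ratios and 1 under quantile normalization. At a 1.5-fold call they numbered 8 of the 14 in the table, beside 3818 of all 6606 genes compared. The cause of these shifts was not tested. The ER median could not be computed, since no ER member was in the table.

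No paired analysis was possible because the columns hold 1 value per genotype and carry no replicate numbers. Leaving out 1 library of 1 genotype, added after seeing the data, was possible for the 4 members with reads per library. Their log2 differences ran from -1.17 to -0.98 for HSP17.4-CI, -1.30 to -1.06 for HSP17.6-CII, 0.63 to 0.78 for HSP70B and 0.72 to 0.74 for HSFB1, and the call of HSP17.4-CI was the only one lost. Depth limits the low members most: HSP17.4-CI and HSP17.6-CII rest on 31 and 37 wild-type reads over 3 libraries and on 1 and 2 in ago1-27. PCR duplicates are not independent molecules, so intervals cover counting error only.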
